A study of Mus musculus with 2 samples.

Results

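The genes described here are 10 textbook transcriptional targets of p53, the tumour suppressor encoded by Trp53, in mouse embryonic stem (ES) cells titled as a knockout of Dnmt1 or as its control. Dnmt1 is the maintenance DNA methyltransferase, which copies methylation onto new DNA strands. The target genes were picked by name and split by role. Cdkn1a and Sesn2 restrain the cell cycle and growth. Bbc3, Bax, Pmaip1, Phlda3 and Trp53inp1 promote apoptosis, and Mdm2, Ccng1 and Zmat3 feed back on p53 itself. Of these 10 genes, 9 had a named probe set, 16 probe sets in all, among 18193 genes on the array. No probe set was matched to Bax. The series holds 2 Affymetrix MOE 430 2.0 whole-genome mouse arrays, 1 from ES cells titled as the control of the Dnmt1 knockout (KO) and 1 from ES cells titled as the Dnmt1 KO. The source field of both samples describes a control, so the titles alone separate them. The deposited texts used here give no cell line, strain, passage, knockout allele or feeder condition, and the series served as a reference for other ES cell experiments.

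p53 is held at a low level by the ubiquitin ligase Mdm2 and is stabilised when cells sense damage or other stress. It then binds paired recognition elements near its targets, which stop the cell cycle, permeabilise mitochondria or, as with Mdm2, restore the low state. Loss of Dnmt1 is known to raise p53 activity in differentiated mouse cells, whereas undifferentiated ES cells survive without the enzyme.

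The p53 recognition element consists of a pair of 10-base units. RefSeq promoter windows of build GRCm38.p6, running from 250 bases before to 50 bases after an annotated start, were at hand for 7 of the 10 members, in 10 windows. Each window was searched for 2 consensus p53 units, adjacent or 1 base apart, with at most 1 mismatch over both. The unit is its own reverse complement, so 1 search covers both strands. Such a pair was found in 3 member windows, those of Cdkn1a, Ccng1 and Bax, against 0.177% of all 32851 windows. The windows of these 3 genes are printed because they hold such a pair. Capitals mark the paired units, and the letters are given 5′ to 3′ on the strand of the gene. Showing Ccng1 and Bax, and the spacing and mismatches allowed, were decided after the windows had been searched.

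Cdkn1a, chr17:29090729-29091028, plus strand: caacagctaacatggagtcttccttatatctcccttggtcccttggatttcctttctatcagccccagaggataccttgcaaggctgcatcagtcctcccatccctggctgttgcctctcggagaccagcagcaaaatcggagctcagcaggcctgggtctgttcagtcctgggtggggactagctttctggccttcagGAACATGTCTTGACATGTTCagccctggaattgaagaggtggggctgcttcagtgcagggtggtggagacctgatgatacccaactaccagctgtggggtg
Ccng1, chr11:40755237-40755536, minus strand: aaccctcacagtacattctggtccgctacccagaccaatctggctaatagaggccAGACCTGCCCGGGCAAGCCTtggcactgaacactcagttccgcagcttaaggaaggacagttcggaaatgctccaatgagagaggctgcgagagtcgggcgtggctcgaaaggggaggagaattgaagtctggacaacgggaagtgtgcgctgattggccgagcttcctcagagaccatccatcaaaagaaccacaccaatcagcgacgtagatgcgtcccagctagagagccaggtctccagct
Bax, chr7:45466849-45467148, minus strand: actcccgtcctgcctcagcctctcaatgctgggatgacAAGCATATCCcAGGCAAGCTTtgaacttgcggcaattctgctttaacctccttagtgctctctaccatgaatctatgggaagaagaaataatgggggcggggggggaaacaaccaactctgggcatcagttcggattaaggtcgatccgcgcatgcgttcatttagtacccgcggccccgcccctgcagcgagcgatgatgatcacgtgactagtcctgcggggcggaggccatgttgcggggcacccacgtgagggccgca

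The Cdkn1a pair began 51 bases before the start of the upstream annotated transcript and carried 1 mismatch with no spacer. Another unit, without a mismatch, began 73 bases before that start. The window of the other annotated Cdkn1a start, chr17:29093519-29093818, had no exact unit. The Ccng1 pair began 195 bases before the start with no spacer, and the Bax pair 212 bases before the start with a spacer of 1 base, each with 1 mismatch. Mdm2 had 1 exact unit, 186 bases before the start, and no pair. No exact unit occurred in the windows of Sesn2, Phlda3 or Bbc3, while 8.36% of all windows held at least 1. The best pair in a Bbc3 window had 3 mismatches, a score that 11.7% of all windows reach or better. These matches describe letters in the window and are not measurements of binding. The windows also differed in CpG dinucleotides, the substrate of Dnmt1. The upstream Cdkn1a window held 2, and the other member windows held 14 to 39, against a median of 7 over all windows (quartiles 3 and 20).

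Signals are MAS5 intensities as deposited, on a linear scale. A signal is called above the floor when it exceeds the median of all probe sets on its array, 60.9 for the control and 74.2 for the KO. The arrays were not at a common level. The median gene above both floors was 1.34-fold brighter on the KO array, 0.43 on the log2 scale. Ratios below are log2(KO/control) minus this shift unless they are called as deposited. With 1 array per group there is no replicate, so no test between groups could be made and each value stands alone. Probe sets for the same gene had a pooled SD of 0.24 on the log2 scale (4704 genes), which serves as a technical yardstick that holds no variation between cultures. Dnmt1 itself went from 1949.1 to 262.1 on its brightest probe set, a fall of 9.99-fold relative to the median gene. All 10 ES cell markers examined were above the floor. On their brightest probe sets, Klf4, Nanog and Esrrb moved between the arrays by more than any member. Their log2 ratios were 1.92, 1.30 and 1.18, all past 2-fold, while Utf1 had -0.62. Over 3 probe sets Esrrb averaged 0.84 ± 0.40 (SD), below 2-fold. Over 2 probe sets Utf1 averaged -0.33 ± 0.41 (SD). The median of the 10 markers was 0.10. Of the 5 neural markers measured, 4 were on the lower side, with a median of -0.49 (-0.067 as deposited). The 6 primitive endoderm markers measured had a median of -0.041. Of 13 fibroblast markers with a probe set, 8 were below the floor on both arrays. The 5 measured had a median of -0.28 (0.14 as deposited), with 3 on the lower side, Col1a1 lowest at -0.66 (94.3 to 80.2) and Thy1 highest at 0.27 (340.0 to 549.8). The summed signal of the 13, as deposited and including those below the floor, was 934.2 in the control and 1258.8 in the KO. Relative to the median gene this was a log2 ratio of 0.0049. The part of these cell-state differences in the p53 target values was not tested. Bulk RNA cannot separate more RNA per cell from more cells that express a gene.

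All 9 measured p53 targets were on the higher side of the median gene on the KO array. This held for each of their 15 probe sets above the floor. Of the 12226 genes above the floor on at least 1 array, 49.2% were on that side. The changes were small. Relative to the median gene, 2 of the 9 members, Pmaip1 and Cdkn1a, were at least 1.5-fold higher, beside 4.74% of all measured genes. None was at least 2-fold higher, beside 1.09% of all genes, and none was 1.5-fold lower, beside 4.25%. As deposited, the same 2 members were at least 2-fold higher, beside 4.92% of genes, and 8 were at least 1.5-fold higher, beside 28% of genes. The median member had a log2 ratio of 0.42, and 8 of 9 members had ratios above the yardstick of 0.24, of which Sesn2 lay at that value. With quantile normalization or lowess, 6 of 9 did, since Sesn2 and Bbc3 then fell below it. The middle 80% of all measured genes lay between -0.41 and 0.40. Earlier results on these arrays were known when the genes were picked, so their common direction is a description.

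**Figure D1:**
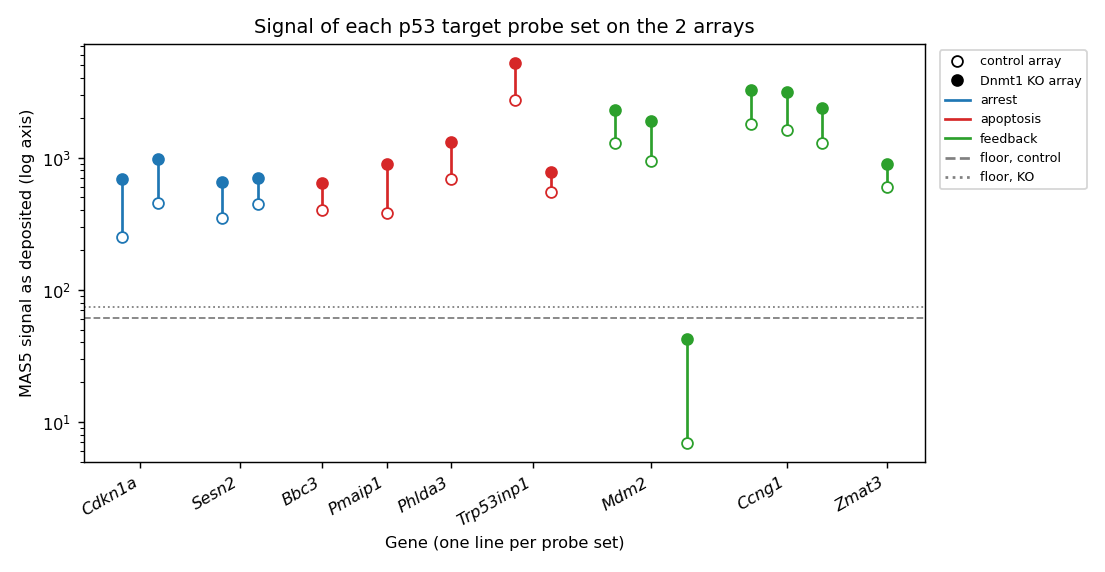
Deposited MAS5 signal (log axis) of every probe set of the 9 measured p53 targets, with an open point for the control array, a filled point for the KO array and grey lines for the 2 floors. Every KO point lies above its control point, and the only probe set under both floors is one of Mdm2 (6.9 and 42.2).

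Cdkn1a encodes p21, the inhibitor of cyclin-dependent kinases through which p53 arrests the cell cycle. Its brightest probe set went from 456.3 (control) to 974.9 (KO), 2.14-fold as deposited. Relative to the median gene this was 1.59-fold, a log2 ratio of 0.67, and 3.47% of measured genes were at least as high. Its other probe set went from 251.8 to 684.8, 2.03-fold relative to the median gene. This was the only one of the 15 probe sets past 2-fold, beside 0.858% of named probe sets that exceeded both floors. The probe sets of Cdkn1a, designed from different transcript records, averaged 0.84 ± 0.25 (SD, 2 probe sets). The related inhibitors Cdkn1b and Cdkn1c, chosen after their values were known, had log2 ratios of -0.17 (203.2 to 242.7) and -1.47 (1397.3 to 678.4). Cdkn1a was thus the only one of these 3 inhibitors on the higher side. As deposited Cdkn1b was also brighter on the KO array.

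Sesn2 encodes a sestrin, which curbs growth signalling through mTORC1 under stress. Its brightest probe set went from 441.9 to 702.4, a log2 ratio of 0.24 relative to the median gene. The other, designed from the same transcript record, went from 350.1 to 654.6, a log2 ratio of 0.48. Both were on the higher side, and neither reached 1.5-fold. The arrest genes thus differed by 0.43 between their brightest probe sets. The yardstick of 0.24 is for 1 probe set, and a difference holds the scatter of 2, so it is no limit for this gap.

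Among the apoptosis genes, Pmaip1 had the highest ratio of all members. It encodes Noxa, a BH3-only protein that neutralises the survival protein Mcl1. Its single probe set went from 377.6 to 900.0, 2.38-fold as deposited and 1.77-fold relative to the median gene, a log2 ratio of 0.83. Only 1.94% of measured genes were at least as high. Bbc3 encodes Puma, a BH3-only protein that binds all survival members of the BCL2 family. Its single probe set went from 399.2 to 646.3, a log2 ratio of 0.27. These BH3-only genes therefore lay 0.56 apart on the log2 scale, each read from 1 probe set. The yardstick of 0.24 is for 1 probe set and is no limit for a difference between 2.

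Phlda3, a repressor of the survival kinase Akt, went from 688.6 to 1306.4 on its single probe set, a log2 ratio of 0.50. Trp53inp1 encodes a stress protein that promotes p53 phosphorylation and autophagy. Its brightest probe set went from 2724.9 to 5198.2, a log2 ratio of 0.51. Its other probe set, from the same transcript record, went from 550.5 to 772.2, a log2 ratio of 0.06, the lowest of the 15. Trp53inp1 had the widest spread between probe sets of any member, 0.28 ± 0.31 (SD, 2 probe sets), so its ratio depends on which is read.

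The feedback genes spanned the narrowest range of the 3 roles. Mdm2, the ligase that marks p53 for degradation, went from 1291.7 to 2275.3 on its brightest probe set, a log2 ratio of 0.39. A second probe set went from 950.5 to 1882.0, a log2 ratio of 0.56. The remaining one was below the floor on both arrays (6.9 and 42.2) and has no ratio. Ccng1 encodes cyclin G1, which recruits the phosphatase PP2A to Mdm2. Its 3 probe sets went from 1794.9 to 3235.4, from 1627.1 to 3162.7 and from 1292.6 to 2382.4, with log2 ratios of 0.42, 0.53 and 0.46. All were designed from 1 transcript record and averaged 0.47 ± 0.056 (SD, 3 probe sets), the narrowest spread of the 5 members with several ratios. Zmat3, an RNA-binding zinc finger protein that binds Trp53 and Cdkn1a transcripts, had the lowest ratio of the members. It went from 601.6 to 887.5, a log2 ratio of 0.14, and 30.8% of genes were at least as high.

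**Figure D2:**
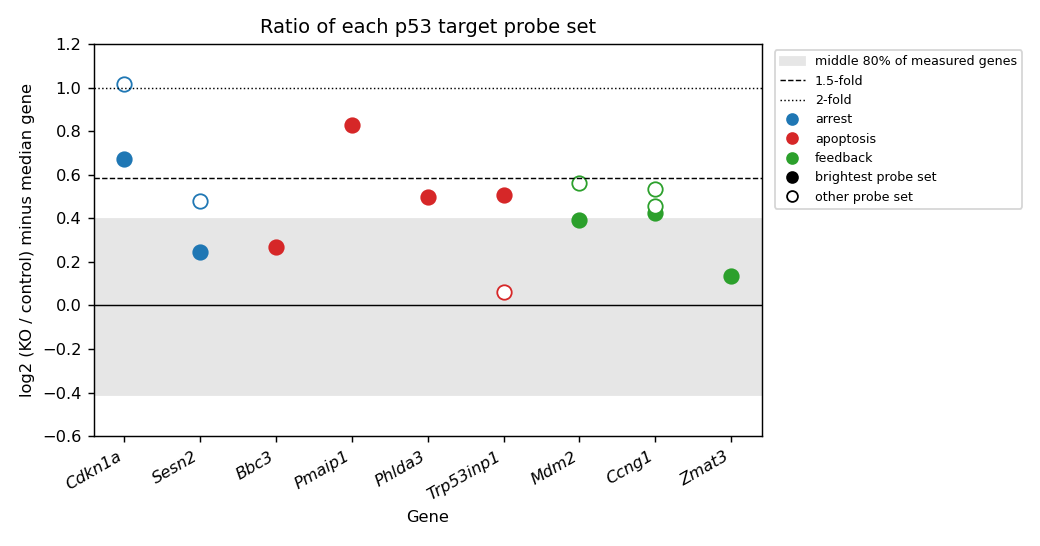
log2(KO/control) minus the median gene for each of the 15 probe sets above the floor, filled for the brightest probe set of a gene and open for the others, over a grey band that holds the middle 80% of measured genes. All points lie above 0, from 0.06 (Trp53inp1) to 1.02 (Cdkn1a), and 3 lie above the 1.5-fold line.

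Compared by role, the median log2 ratio was 0.46 for arrest (2 genes, 0.24 to 0.67), 0.50 for apoptosis (4 genes, 0.27 to 0.83) and 0.39 for feedback (3 genes, 0.14 to 0.42). The medians lay within 0.11 of each other and the ranges overlapped. With 2 to 4 genes a role on 1 array per group, a difference between roles could not be tested. The spread within each of the 3 roles was wider than that between the role medians. At probe set level, 2 of 4 arrest, 1 of 5 apoptosis and 0 of 6 feedback probe sets were at least 1.5-fold higher, beside 4.14% of named probe sets above both floors. Probe sets of one gene share its RNA and are not replicates. In order of ratio, Pmaip1 and Cdkn1a came first, 0.16 apart. Trp53inp1 (0.51), Phlda3 (0.50), Ccng1 (0.42) and Mdm2 (0.39) followed within 0.12 of each other, and Bbc3 (0.27), Sesn2 (0.24) and Zmat3 (0.14) came last. The largest gap between neighbours in this order was 0.16. The yardstick is for 1 probe set and is no limit for such gaps.

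**Figure D3:**
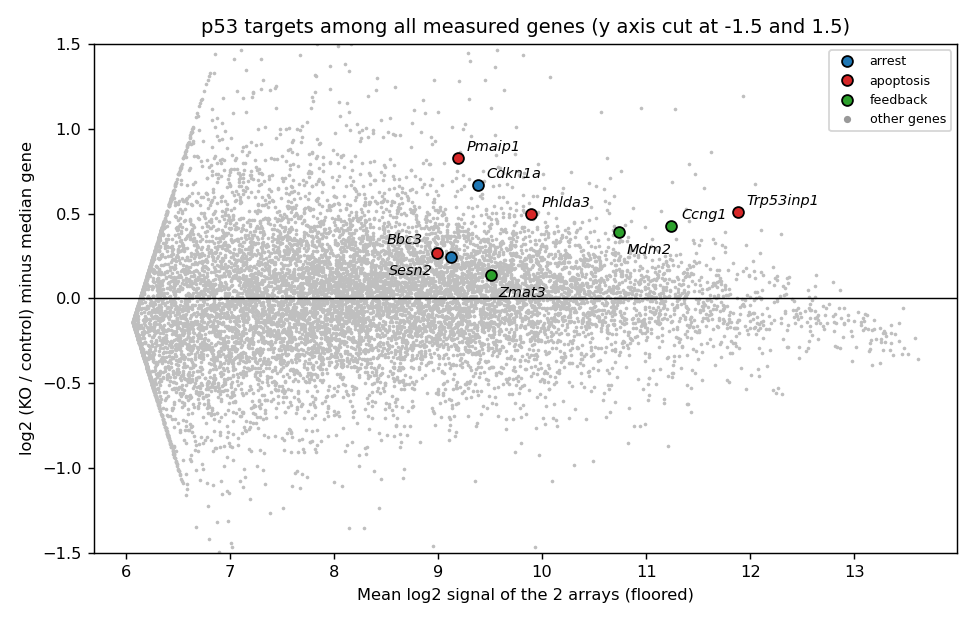
log2 ratio relative to the median gene against the mean log2 signal of the 2 arrays for every measured gene (grey) and the 9 p53 targets (coloured by role). The members lie at middle to high signals and all above 0, with Bbc3, Sesn2 and Zmat3 inside the bulk of the genes and Ccng1 and Trp53inp1 at the upper edge of the bright ones.

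The members were then set beside the rest of the pathway, over lists chosen with the members' values on these arrays known. Of 34 other measured p53 targets, 21 were on the higher side, beside 49.2% of all measured genes. At least 1.5-fold higher were 2, beside 4.74%, and 0 were 1.5-fold lower, beside 4.25%. Their median was 0.064. That is nearer to the median gene than the 0.42 of the members. The other arrest targets came closest to the members, with 6 of 7 on the higher side and a median of 0.28. The stress kinase genes Plk3 (179.5 to 367.0) and Plk2 (345.5 to 659.3) had log2 ratios of 0.61 and 0.51. Gtse1, which moves p53 out of the nucleus, had 0.48. Sesn1, the sestrin related to Sesn2, had 0.16. The Ink4a/Arf gene Cdkn2a, counted in this list though not a textbook p53-induced gene, had 0.092. Gadd45a, a growth arrest and DNA damage gene, had -0.29 (412.0 to 451.7).

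Other apoptosis targets had a median of 0.062, and none of the 10 measured was 1.5-fold different. Pidd1, a scaffold for caspase 2 activation, had a log2 ratio of 0.39, the nuclease gene Aen 0.22 and Ei24 0.081. The apoptosome gene Apaf1 had -0.21, the caspase gene Casp6 -0.030 and the desmosomal gene Perp -0.018. Fas, a death receptor gene picked with its values in view, stayed under both floors (35.3 and 7.8). The apoptosis members therefore stood above other targets of the same role (median 0.50 against 0.062), a difference that could not be tested.

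Among the other feedback targets, the p53 inhibitor Mdm4 and the phosphatase Ppm1d, which dephosphorylates p53, were near their partner Mdm2. Mdm4 went from 240.8 to 437.6, with a log2 ratio of 0.44 and a mean of 0.45 ± 0.11 (SD, 3 probe sets). Ppm1d went from 247.2 to 444.4, with a log2 ratio of 0.42 and a mean of 0.41 ± 0.0087 (SD, 2 probe sets). The ligase gene Rchy1 had 0.060, Rps27l -0.011, the nuclear body gene Pml -0.10 and the ligase gene Cop1 -0.22. The 3 probe sets of Pml disagreed (-0.56 ± 0.55, SD). The p53 relative Trp73, picked with its values in view, was at the floor on the control array, and its log2 ratio of at least 0.74 (58.8 to 137.0) is a lower bound. Trp73 and Plk3 were the 2 other targets past 1.5-fold, and with the floor at the 75th percentile neither was.

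Repair and metabolic targets had a median of -0.086 over 10 genes, of which 4 were on the higher side and none was 1.5-fold different, although as deposited that median was 0.34. Dcxr had a log2 ratio of 0.46, the ribonucleotide reductase gene Rrm2b 0.20 and the peroxidase gene Gpx1 0.20. The 2 probe sets of Rrm2b with a ratio averaged 0.065 ± 0.20 (SD). The damage recognition gene Ddb2 had -0.50 (141.1 to 134.1) with probe sets that disagreed (-0.066 ± 0.61, SD over 2). The fructose bisphosphatase gene Tigar had -0.27, but its 3 probe sets averaged 0.046 ± 0.51 (SD). The replication clamp Pcna had -0.19.

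Of the 17 measured upstream regulators of p53, none was 1.5-fold different, 8 were on the higher side and the median was -0.045. Of all measured genes, 49.2% were on the higher side, 4.74% were at least 1.5-fold higher and 4.25% lower. The damage kinase Atr had a log2 ratio of 0.40 (295.0 to 522.2), while Atm, the kinase that responds to double-strand breaks, had -0.22 (225.3 to 259.8). Ppp1r13b, a p53 cofactor, had 0.38 and the deubiquitinase Usp7 0.20, but the 7 probe sets of Usp7 averaged -0.13 ± 0.40 (SD). The acetyltransferases Ep300 and Kat5 had -0.25 and -0.23. No probe set was matched to Trp53.

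Other BCL2 family genes, called partners here though some are themselves BH3-only genes, had a median of 0.080 over 10 measured genes. The survival gene Mcl1, picked with its value in view, had a log2 ratio of -0.0041 (4238.2 to 5675). Beside 4.74% of all measured genes, 1 of the 10 was at least 1.5-fold higher. That gene was Bik, another BH3-only gene, which went from 85.2 to 194.3 at a log2 ratio of 0.76, with a mean of 0.47 ± 0.37 (SD, 3 probe sets). Its call was lost under 3 other settings of floor or probe set. Bad had 0.25 and the survival gene Bcl2l1 0.22, but the 3 probe sets of Bcl2l1 averaged -0.17 ± 0.37 (SD). The BH3-only genes Hrk and Bcl2l11 had -0.54 and -0.26, and the pore-forming gene Bak1 had -0.47. BH3-only genes thus lay on both sides of the median gene, with Pmaip1 the highest of those named.

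Cell cycle genes that p53 lowers through p21 and the DREAM repressor complex were spread around the median gene. Of 21 measured, 13 were on the higher side, beside 49.2% of all measured genes. None was 1.5-fold different, beside 4.74% higher and 4.25% lower, and the median was 0.049. The mitotic kinase Aurka had 0.50 (772.2 to 1469.8), the G1/S factor E2f1 0.35 and the centromeric histone Cenpa 0.33. Foxm1 and Kif23, a mitotic factor and a cytokinesis motor, had -0.35 each, and Cdk1 had -0.16. The 3 probe sets of Foxm1 with a ratio averaged -0.21 ± 0.49 (SD). Among the genes named from the pathway lists, Hrk, Bak1 and Ddb2 were lower on the KO array as deposited too. The others of those lists given with a negative ratio were at or above the control signal on their brightest probe set before the shift was taken off.

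**Figure D4:**
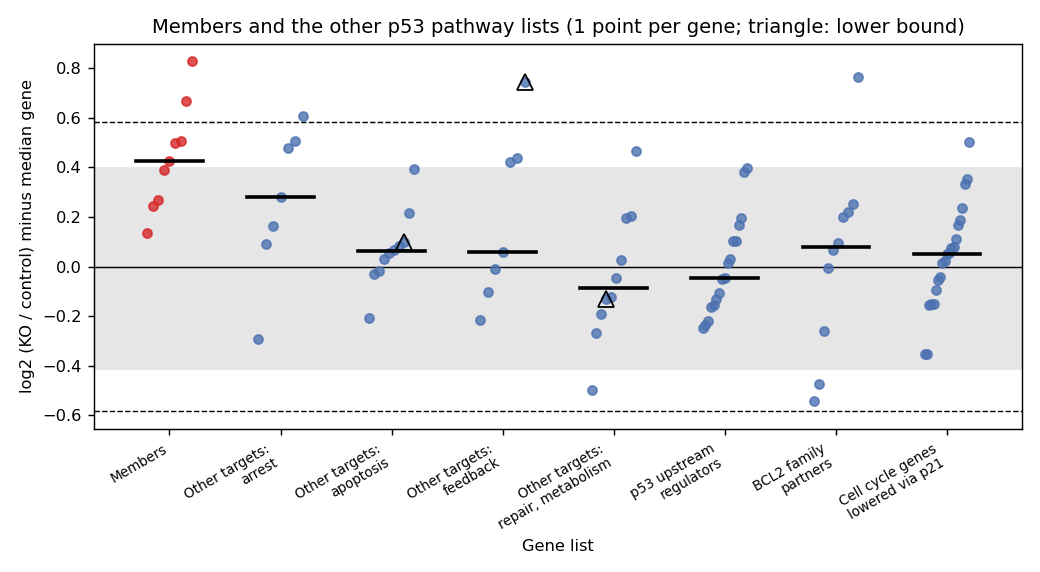
log2 ratio relative to the median gene for the members (red) and for the other pathway lists (blue), 1 point per gene, with a black bar at each median, a grey band for the middle 80% of genes, dashed lines at 1.5-fold and triangles around lower bounds. The member median of 0.42 lies above that of every other list, the nearest being other arrest targets at 0.28.

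The members lie on 8 chromosomes, so each was also set beside its 5 nearest genes above both floors on either side, in RefSeq gene order. This description was added after the values were seen. Over the 90 neighbours the median log2 ratio was 0.019, 49 were on the higher side, 5 were at least 1.5-fold higher and 2 lower. Over all measured genes these shares were 49.2%, 4.74% and 4.25%. That set is wider than the one the neighbours came from, as it includes genes above the floor on only 1 array. All 9 members exceeded the median of their own neighbours, which ran from -0.19 (Phlda3) to 0.20 (Cdkn1a). No neighbour reached the ratio of Cdkn1a, Pmaip1 or Phlda3, but Sec11c near Pmaip1 had 0.82, almost level with the 0.83 of Pmaip1. Srsf3, directly before Cdkn1a, had -0.35, while Kctd20, also near Cdkn1a, had 0.43. Next to Mdm2, however, Cpm had a log2 ratio of 1.16, above Mdm2 itself. For Sesn2, 3 of 10 neighbours were at least as high.

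**Figure D5:**
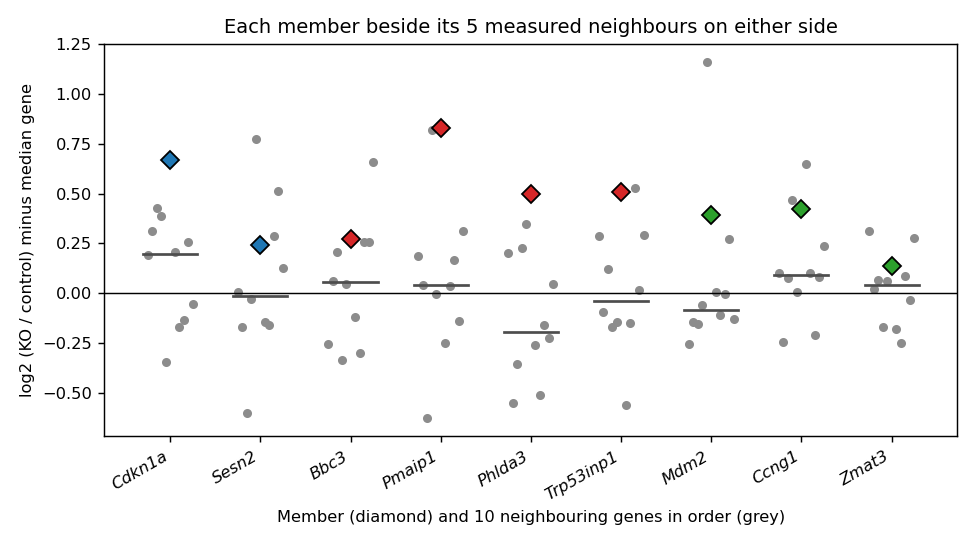
log2 ratio relative to the median gene of each member (diamond, coloured by role), its 10 neighbouring genes above both floors in chromosomal order (grey) and the median of those neighbours (bar). Every diamond lies above its bar, and Cpm beside Mdm2 is the highest grey point.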

How the data were processed

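The values are signal intensities that the authors deposited for 2 arrays, made with MAS5 per the submitters' processing notes. Per the labels' protocols, total RNA was extracted with a phenol reagent and spin columns and labelled after 1 round of amplification. For the MAS5 target intensity, array scaling and detection calls, the setting is not stated in the material used here. Groups come from the sample titles. Control probe sets were left out, and 34945 of 45037 probe sets had 1 gene symbol, updated by gene identifier to RefSeq GRCm38.p6.

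Signals under an array's median were raised to it (the floor), and log2 ratios were centred on the median gene above both floors. A gene was read from its brightest probe set. A gene at the floor on 1 array gives a bound, and on both arrays no ratio. Counts use 1.5-fold and 2-fold thresholds. The number of arrays limits precision, and no p-value is given. The members and lists were chosen with earlier results of these data known. Named genes are all members, Dnmt1, Mdm4, Ppm1d and, in each pathway list, the 3 highest and 3 lowest ratios above both floors. The text marks the others as picked with their values in view, except the cell type markers. Those markers were named for the highest or lowest ratios in their lists. Scaling, floor, probe set choice, threshold and role groups were varied. The procedure was tested on simulated data with planted changes larger than any member ratio, called at 2-fold. That test does not cover changes as small as those of the members. Python 3.11.15, pandas 2.3.3 and statsmodels 0.14.6 were used.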

Additional observations from a re-analysis of the deposited data

How the results depend on the processing

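Each member ratio was recomputed under 8 alternatives of scaling, floor and probe set choice. All 72 recomputed ratios were above 0 and 63 moved by less than the SD of 0.24 between probe sets. The other 9 were those as deposited, which are higher by the shift of 0.43. Without those, member ratios ran from 0.11 (Zmat3) to 0.87 (Pmaip1). Changing the floor or leaving out _x_at and _s_at probe sets moved all members by nearly the same small amount, through the centring. The mean over probe sets did so for the members with 1 ratio. Those settings could hardly change these ratios, so the count of 63 is no measure of their stability. As deposited, the medians were 0.88 for arrest, 0.93 for apoptosis, 0.82 for feedback and 0.85 for all members, and 8 members were at least 1.5-fold higher, beside 28% of all genes. The medians of the other lists were then 0.49 for other targets, 0.38 for upstream regulators, 0.51 for BCL2 partners and 0.47 for cell cycle genes. At a 2-fold threshold 0 members were called. With the mean over probe sets, the upstream median was 0.11 and the BCL2 median -0.020, on the other side of the median gene. Bik was below 1.5-fold in that setting, without _x_at and _s_at probe sets, and under a 75th percentile floor. Fas was 1.5-fold lower with the floor at the 25th percentile (-0.98) or none (-2.43), where its low signals are read. The role groups were also redrawn, with Ccng1 moved to arrest and Trp53inp1 to feedback. Zmat3, the lowest feedback member (0.14), was left out of the redrawn groups. The medians were then 0.42 for arrest, 0.50 for apoptosis and 0.45 for feedback. The order of arrest and feedback changed, but in a comparison without Zmat3. With the mean over probe sets it was arrest that came first (0.62), then feedback (0.49) and apoptosis (0.40). No paired analysis was possible because each group has 1 array. Low signals limit what can be read for genes at the floor.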
